A study of Mus musculus with 17 samples.

Results

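The cortex of Hnrnph2-KO mice was compared with that of their WT littermates at 8 weeks of age, gene by gene. Of the 17 cortex samples of the series, 6 were used for this comparison, 3 hemizygous Hnrnph2 KO male mice and 3 wild-type male mice of the same line, all C57BL/6J. They are called KO 1 to 3 and KO Control 1 to 3, as in the labels. The other 11 samples were R206W mice and their controls at 8 weeks and P209L mice and their controls at 3 weeks. They entered the choice of genes tested, the estimate of the spread of each gene and the median-of-ratios size factors. Beyond that they entered only the comparisons in which they are named. According to the study's methods, the KO line arose while the knockin lines were made and carries an indel that shifts the reading frame of Hnrnph2, so that the mice stand for a single allele. The labels do not say whether the 3 mice of a group came from different litters. The limma p-values measure the spread between single mice, pooled over the 6 groups of all 17 samples. They do not measure a spread between litters.

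hnRNPH2 belongs to the hnRNP H/F family, RNA-binding proteins that recognise runs of G in nascent transcripts and take part in splicing and polyadenylation. The family also holds hnRNPH1, the autosomal paralog, hnRNPH3 and hnRNPF, and the mitochondrial RNA-binding protein GRSF1 is a relative with similar RNA-binding domains. Hnrnph2 is on the X chromosome, so that a hemizygous male with a disrupted allele has no intact copy. A transcript with a premature stop codon is a usual target of nonsense-mediated decay, the pathway that degrades messages whose reading frame ends early.

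Hnrnph2 and Hnrnph1 are similar enough for the assignment of reads to matter. Their coding sequences are 1347 bases each in GENCODE M21 (GRCm38, the build also called mm10), and 85.9% of the aligned bases are identical. The stretch below covers codons 200 to 214 of both genes, around the site edited in the knockin lines, and is shown because it is where the paralogs can be compared base by base. In Hnrnph2, capitals mark the codons replaced in the R206W and P209L lines, and in Hnrnph1 they mark the aligned codons, which were not edited. The letters are the reference sequence of the plus strand, and the exact bases of the KO indel were not used here.
Hnrnph2, chrX:134605505-134605549: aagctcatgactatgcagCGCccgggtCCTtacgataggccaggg
Hnrnph1, chr11:50382598-50382642: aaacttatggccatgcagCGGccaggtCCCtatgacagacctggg
Both stretches lie within a single exon, and 11 of the 45 bases differ. The 5 annotated Hnrnph2 transcripts hold 4507 distinct windows of 50 bases, and 0 of these windows occur in any of the 18 annotated Hnrnph1 transcripts. The longest run of identical bases shared by the transcripts is 34 bases. The read length is not given in the sources used here.

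Values were TPM, the length-scaled share of each gene among all transcripts of a sample, and tests were run on log2(TPM + 1) with limma, so that fold changes of weakly expressed genes are understated. Sequencing depth is unknown, and precision was judged from the spread between mice. In KO Control 1 the mitochondrially encoded genes took 20.1% of TPM, against 10.7% to 15.4% in the other 16 samples. In KO 3 the small noncoding RNA genes summed to 11383 TPM, against 996 to 4444 TPM in the other 16 samples. Across the tested genes, the 5 pairs of KO-line samples that include KO Control 1 correlated with r = 0.958 to 0.982, and the 10 pairs without it with r = 0.970 to 0.987. Values are those of all samples unless a fit without KO Control 1, without KO 3 or with median-of-ratios size factors is named.

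**Figure D1:**
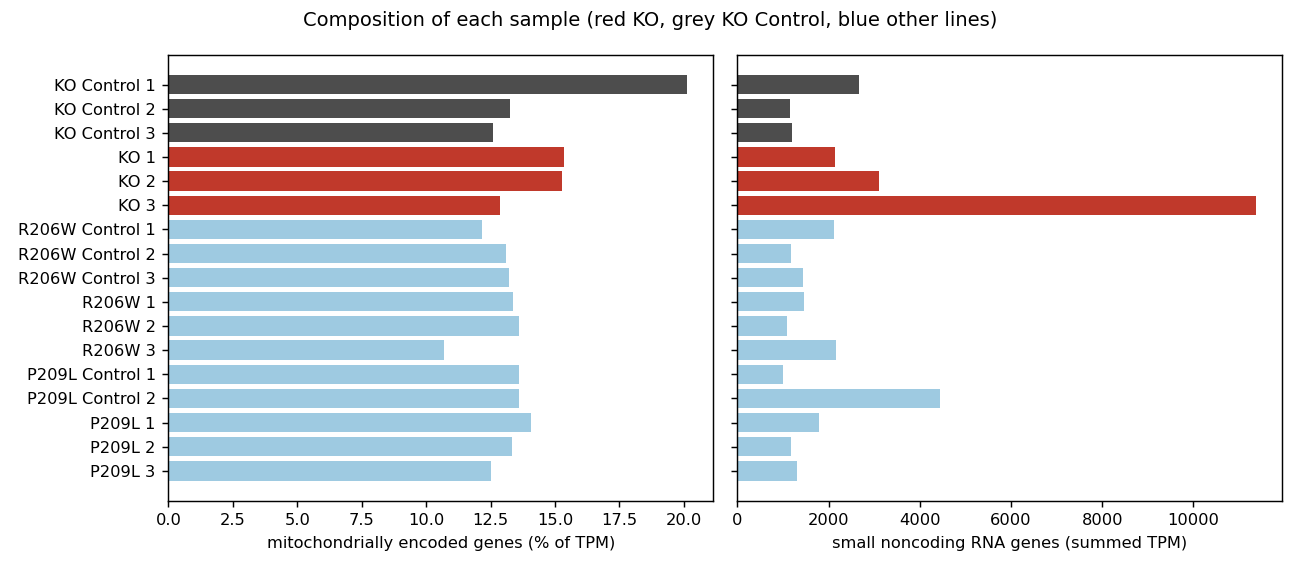
Share of TPM in mitochondrially encoded genes (left, percent) and summed TPM of small noncoding RNA genes (right) in each of the 17 samples. Red bars are KO, grey bars KO Control and blue bars the other lines. KO Control 1 stands at 20.1% on the left and KO 3 at 11383 TPM on the right.

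Hnrnph2 was the targeted gene and fell in the KO cortex. It measured 80.5, 145 and 140 TPM in KO Control 1 to 3 and 23.5, 21.3 and 24.4 TPM in KO 1 to 3. The KO mice lay close together and far below every control, and KO Control 1 was the lowest control. The mean went from 122 ± 35.7 TPM to 23.1 ± 1.59 TPM (SD, n = 3 each), so that 19.0% of the control level remained. On the log2(TPM + 1) scale the change was -2.30 (SE 0.17, limma adjusted p = 8.6e-06). With KO Control 1 left out, the change was -2.58 and 16.2% of the mean of KO Control 2 and 3 remained. Median-of-ratios scaling gave -2.38. In a fit of the 6 mice of the KO line alone, the same change had a limma adjusted p of 0.083. The R206W controls, wild-type mice of the same age, had 140 to 149 TPM. An exact two-sided permutation test gave p = 0.1, the smallest that 3 mice against 3 can give.

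Hnrnph1, the paralog, was higher in every KO mouse than in every control, but the difference did not pass the adjusted threshold. It measured 246, 337 and 329 TPM in KO Control 1 to 3 and 443, 445 and 408 TPM in KO 1 to 3. KO Control 1 was again the lowest, and the groups did not overlap. The KO mean of 432 ± 20.7 TPM was 142% of the control mean of 304 ± 50.3 TPM (SD, n = 3 each). The log2 change was 0.52 (SE 0.13, 95% interval 0.24 to 0.79, limma adjusted p = 0.81). Without KO Control 1 the KO mean was 130% of the control mean and the log2 change 0.37 (adjusted p = 0.41), and with median-of-ratios scaling it was 0.44 (adjusted p = 0.91). The R206W controls had 323 to 377 TPM, also below all KO mice, and against the controls of both 8-week lines together the log2 change was 0.42 (adjusted p = 0.72). The exact permutation p was 0.1, the smallest possible.

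In TPM, which is scaled by transcript length, Hnrnph1 was the more abundant paralog in every sample of the line. The ratio of Hnrnph1 to Hnrnph2 TPM was 3.06, 2.33 and 2.36 in KO Control 1 to 3 and 18.8, 20.9 and 16.7 in KO 1 to 3. This ratio is taken within a sample and does not depend on the scaling between samples. It combines the lower Hnrnph2 with the higher Hnrnph1 values and does not separate them.

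The remaining family members overlapped between the groups. Hnrnph3 measured 35.9, 48.6 and 56.2 TPM in the controls and 49.1, 43.3 and 51.6 TPM in the KO mice, with a log2 change of 0.05 (95% interval -0.24 to 0.35). Hnrnpf, which encodes a regulator of splicing close to hnRNPH, measured 34.8, 59.8 and 64.5 TPM in the controls and 50.8, 48.5 and 61.1 TPM in the KO mice. Its log2 change was 0.05 (95% interval -0.36 to 0.46). For both genes the estimate was below 0 with median-of-ratios scaling, at -0.03 each, and without KO Control 1, at -0.12 for Hnrnph3 and -0.22 for Hnrnpf. Grsf1 measured 55.5, 83.5 and 81.9 TPM in the controls and 72.1, 76.3 and 63.7 TPM in the KO mice, a log2 change of -0.04 (95% interval -0.35 to 0.27). Its estimate was 0.03 without KO 3, 0.06 without KO Control 2 and 0.05 without KO Control 3. KO Control 1 was the lowest of the 6 mice for Hnrnph3, Hnrnpf and Grsf1.

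**Figure D2:**
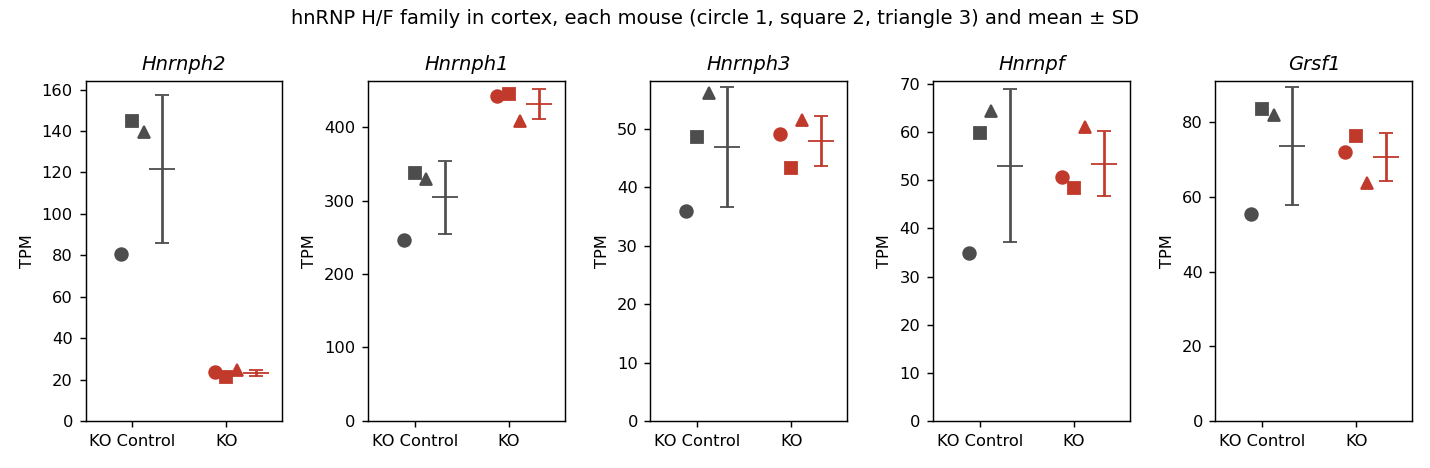
TPM of the 5 hnRNP H/F family genes in each KO Control (grey) and KO (red) mouse. Symbols give the mouse number and bars the mean ± SD of 3 mice, with each vertical axis starting at 0. The groups are apart for Hnrnph2 and Hnrnph1 and overlap for the other members.

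Across the genome, Hnrnph2 was the only gene of 16265 tested that passed the adjusted threshold of 0.05 (0.00615% of genes, with 0 genes higher). At an unadjusted limma p under 0.05 there were 663 genes (4.08%), 563 of them higher (3.46%) and 100 lower (0.615%) in KO cortex. The rule of an unadjusted p under 0.05 with a log2 change beyond 0.5 was met by 141 genes (0.867%), 108 higher (0.664%) and 33 lower (0.203%). It does not control for multiple testing. The excess of higher genes depended on the scaling. With median-of-ratios size factors the rule was met by 56 higher (0.344%) and 52 lower genes (0.32%), and without KO Control 1 by 107 higher (0.658%) and 142 lower genes (0.873%). The share of all genes with a log2 change above 0 was 67.3% as deposited, 47.6% with median-of-ratios scaling, 36.8% without KO Control 1 and 61.4% without KO 3. The median log2 change over all genes was 0.06, -0.01, -0.06 and 0.04 in these fits. Sample weights, which give less influence to samples that deviate more, raised the count past the adjusted threshold to 2156 genes. The weights were 0.08, 4.05 and 0.77 in KO Control 1 to 3 and 2.84, 0.89 and 0.24 in KO 1 to 3. Thus KO Control 2 and KO 1 carried most of the weight of their groups. Leaving out KO Control 3 gave 319 genes by the rule and leaving out KO 2 gave 297.

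Without KO Control 1, 5 genes passed the adjusted threshold (0.0307%), Hnrnph2 among them. The other genes were named after their values were seen. Rpl31-ps16, a processed pseudogene of a ribosomal protein gene, measured 1.69, 0.71 and 0.85 TPM in the controls and 3.04, 3.57 and 2.91 TPM in the KO mice. Its log2 change was 1.23 without KO Control 1 (adjusted p = 0.0015) and 1.03 with it (adjusted p = 0.077). Against the controls of both 8-week lines together, the change of Rpl31-ps16 was 0.48 (limma adjusted p = 0.72). Reads of such a copy cannot be told with certainty from those of the parent gene. Arhgap25, which encodes a GTPase-activating protein for Rac, measured 5.14, 11.7 and 10.1 TPM in the controls and 5.43, 5.05 and 6.51 TPM in the KO mice, so that KO Control 1 lay within the KO range. Its log2 change was -0.84 without KO Control 1 (adjusted p = 0.035), -0.79 when median-of-ratios scaling was added (adjusted p = 0.094) and -0.52 with all mice (adjusted p = 0.999). Against the controls of both 8-week lines it was -0.53 (limma adjusted p = 0.84). The microRNA genes Gm44450 and Mir8103 were listed at 0 in KO Control 1 and in all KO mice. They measured 18.4 and 21.2 TPM for Gm44450, and 62.9 and 71.5 TPM for Mir8103, in KO Control 2 and 3. With all KO Control mice, the log2 changes of the microRNA genes were -2.92 for Gm44450 and -4.06 for Mir8103. Against the controls of both 8-week lines they were smaller, at -1.46 and -2.03 (limma adjusted p = 0.89 and 0.91). That contrast weighs both control groups equally, so these values mean that the R206W controls were also at 0. Of the wild-type mice of 8 weeks, only KO Control 2 and 3 thus differed from the KO mice. Gm44450 and Mir8103 each lie within the span of a protein-coding gene, Adgrl1 on the opposite strand and Osbpl7 on the same strand.

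**Figure D3:**
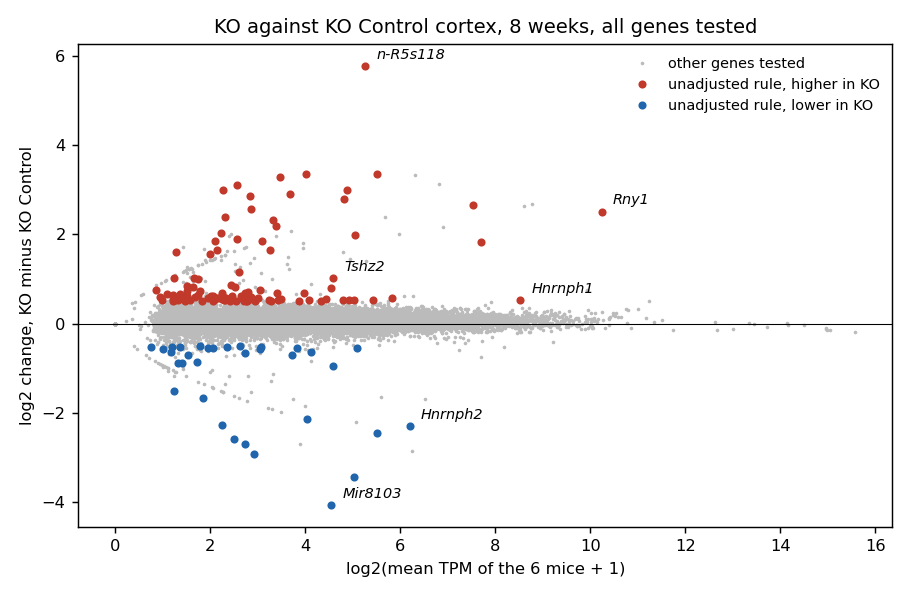
Log2 change of KO against KO Control (vertical) by mean expression of the 6 mice (horizontal, log2(TPM + 1)) for the 16265 genes tested. Red and blue points are the 108 higher and 33 lower genes of the unadjusted rule and grey points the other genes. Hnrnph2 stands below the genes of similar expression, and most red points beyond a log2 change of 2 lie at low to moderate expression.

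Of the 141 genes, 90 had groups that did not overlap, 71 higher and 19 lower. Among all tested genes, the groups did not overlap for 1017 (6.25%), 883 higher (5.43%) and 134 lower (0.824%). After symbols of the Gm, Rik and -ps kinds were set aside, 53 remained, and the rule took the 12 higher genes with the smallest p and all 10 lower genes, of which 21 are described here. Besides Hnrnph2, none of them passed the adjusted threshold in the fit of all 17 samples, where the adjusted p ranged from 0.16 upward. In the fit of the 6 mice of the KO line alone, 0 genes passed it.

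Tshz2, a zinc-finger transcription factor of the teashirt family, measured 13.3, 18.2 and 13.4 TPM in the controls and 32.4, 27.5 and 33.8 TPM in the KO mice. The highest control lay well below the lowest KO mouse, and the KO mean was 208% of the control mean. The log2 change was 1.02 (SE 0.21, limma adjusted p = 0.36) and 0.95 without KO Control 1. Cbln1, which encodes cerebellin-1, a secreted organiser of synapses that binds neurexins, measured 3.31, 4.70 and 4.27 TPM in the controls and 7.86, 6.84 and 6.62 TPM in the KO mice. Its log2 change was 0.68 (SE 0.15, limma adjusted p = 0.58) and 0.56 without KO Control 1. A lincRNA gene, Gm2694, overlaps Cbln1 on the opposite strand.

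Prr5l encodes a protein that associates with the mTORC2 kinase complex. It had the smallest p among the higher genes named, with 3.95, 3.83 and 4.02 TPM in the controls and 7.34, 6.03 and 6.25 TPM in the KO mice. The log2 change was 0.61 (SE 0.10, limma adjusted p = 0.16). Litaf, a membrane protein of late endosomes and lysosomes, measured 10.8, 10.1 and 11.9 TPM in the controls and 20.4, 14.9 and 19.9 TPM in the KO mice, a log2 change of 0.69 (SE 0.16). The protein-coding gene Snn overlaps Litaf on the opposite strand, at a mean of 148 TPM over all samples. Emp3, a small membrane protein with several membrane spans, measured 2.79, 3.34 and 2.28 TPM in the controls and 4.58, 5.22 and 8.23 TPM in the KO mice. C1qtnf5, a secreted protein of the C1q and TNF-related family, measured 11.8, 12.8 and 13.6 TPM in the controls and 17.3, 17.3 and 22.3 TPM in the KO mice. Rnf26, at a mean of 16.5 TPM over all samples, overlaps C1qtnf5 on the opposite strand. For Prr5l, Litaf, Emp3 and C1qtnf5 the controls lay close together and the KO mice were spread more widely.

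Zfhx2os, an antisense transcript of the homeobox gene Zfhx2, measured 4.86, 4.84 and 4.71 TPM in the controls and 8.35, 7.97 and 6.87 TPM in the KO mice, a log2 change of 0.59 (SE 0.11). The library kit marks strand, but the strand setting of the quantification is not given in the sources used here, so reads of Zfhx2os and Zfhx2 may not have been kept apart. The same holds for Litaf with Snn and for C1qtnf5 with Rnf26. Spink10, of a family of serine protease inhibitors, measured 2.91, 3.26 and 3.15 TPM in the controls and 7.04, 7.41 and 4.63 TPM in the KO mice. AW822252, annotated as a transcribed pseudogene on the X chromosome, measured 4.79, 4.49 and 5.23 TPM in the controls and 7.46, 7.27 and 7.82 TPM in the KO mice. The lowest KO value of Spink10 and of AW822252 was above the highest control value of the same gene. Vaultrc5, a vault RNA, was listed at 0 in all controls and at 6.12, 3.28 and 20.0 TPM in the KO mice, with KO 3 the highest.

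Among the lower genes in the plot of named genes, Eps8l1 had the lowest KO mean as a percentage of the control mean, Hnrnph2 included. It encodes an EPS8-like protein linked to actin remodelling and measured 5.60, 4.11 and 3.65 TPM in the controls against 0.50, 0.42 and 1.25 TPM in the KO mice. The KO mean was 16.2% of the control mean, and the log2 change was -1.68 (SE 0.38, limma adjusted p = 0.78). Dmkn, a secreted protein known from epithelia, measured 2.88, 3.72 and 3.19 TPM in the controls and 1.53, 1.04 and 1.52 TPM in the KO mice, a log2 change of -0.85 (SE 0.16). Gadd45a, a stress-inducible gene linked to growth arrest and DNA repair, measured 11.3, 19.4 and 15.7 TPM in the controls and 7.88, 7.81 and 11.3 TPM in the KO mice. The log2 change was -0.71, and -0.90 without KO Control 1. The groups were apart by a narrow margin, with KO 3 at 11.31 and KO Control 1 at 11.33 TPM.

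Arhgap15, another GTPase-activating protein for Rac, measured 19.8, 14.2 and 13.7 TPM in the controls and 10.5, 13.1 and 8.09 TPM in the KO mice. Trbc2, the gene of a constant region of the T-cell receptor beta chain, measured 41.2, 40.7 and 34.5 TPM in the controls and 30.5, 30.9 and 19.0 TPM in the KO mice. Rsph10b, a radial spoke protein of motile cilia, measured 5.77, 5.60 and 7.51 TPM in the controls and 3.83, 4.26 and 4.23 TPM in the KO mice, and it overlaps Pms2 on the same strand. With all mice these differences were between -0.51 and -0.55 on the log2 scale. That of Arhgap15 was -0.39 without KO Control 1 and also -0.39 without KO 3, and that of Trbc2 was -0.32 without KO 3. Krt80, a type II keratin, measured 2.45, 4.33 and 3.95 TPM in the controls and 2.38, 1.99 and 1.94 TPM in the KO mice. The pseudogene AC148174.2 measured 1.79, 4.02 and 2.01 TPM in the controls and 1.10, 0.99 and 1.38 TPM in the KO mice. Snora34, an H/ACA small nucleolar RNA within Kansl2, measured 17.6, 23.7 and 27.8 TPM in the controls and 11.3 and 11.9 TPM in KO 1 and 2, and was listed at 0 in KO 3. The log2 change was -2.13 with all mice and -0.91 without KO 3.

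**Figure D4:**
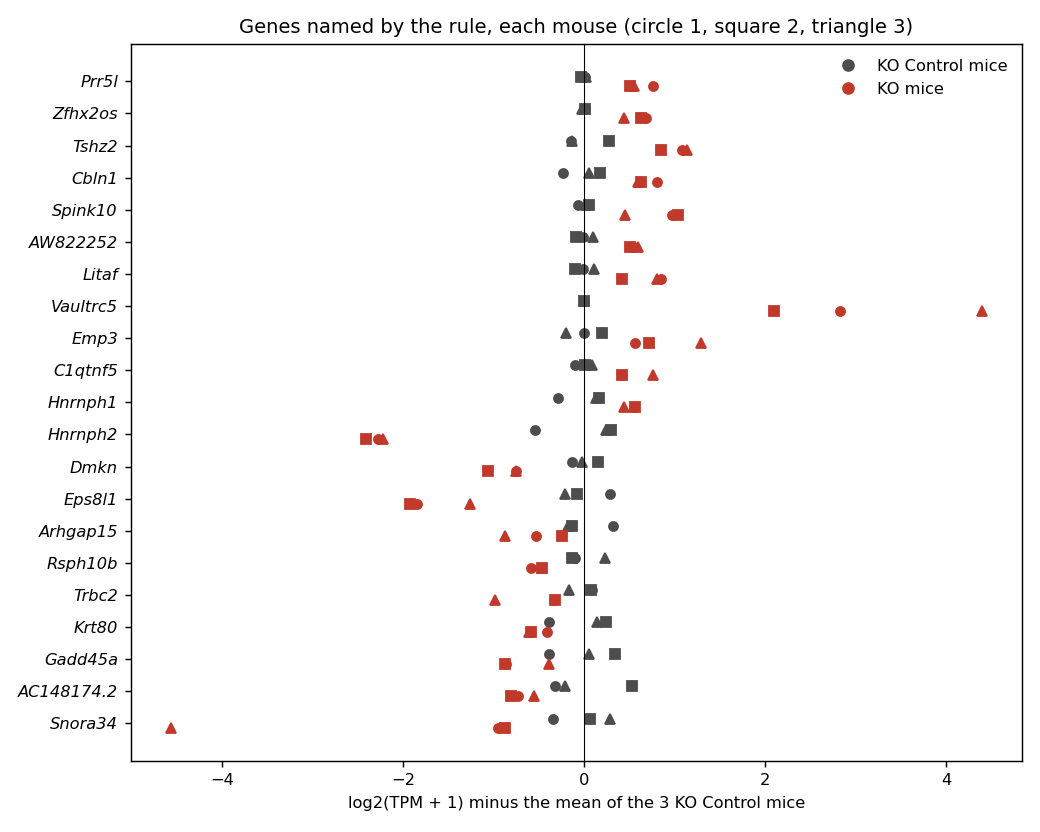
Log2(TPM + 1) of 21 named genes in each mouse, minus the mean of the 3 KO Control mice (horizontal axis). Grey symbols are KO Control and red symbols KO mice, with circle, square and triangle for mouse 1, 2 and 3. The groups do not overlap for any gene shown, which is one of the conditions by which they were chosen. The Hnrnph2 points of the KO mice lie together, and those of Vaultrc5 and Snora34 spread most, with KO 3 at the end.

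The rule was met in every one of the 19 fits, the alternatives included, by 9 of the 141 genes, 7 higher and 2 lower. Hnrnph2, Tshz2, Cbln1, Litaf and Zfhx2os were among them. Spink10, Vaultrc5, Emp3, Dmkn and Eps8l1 met it in the 17 alternatives in which they were tested, since the filter at a mean TPM of 5 removed them from the remaining fit. The other 4 of the 9 were named after their values were seen. Gm34583, a transcribed processed pseudogene, measured 21.3, 34.9 and 35.6 TPM in the controls and 16.9, 16.1 and 12.5 TPM in the KO mice. Snora73b, a small nucleolar RNA within Snhg3, measured 3.07, 1.58 and 3.77 TPM in the controls and 7.16, 5.25 and 9.69 TPM in the KO mice. The groups of both genes were apart, the first lower and the second higher in KO cortex. The 5S ribosomal RNA gene n-R5s118 was listed at 0 in all controls and measured 30.3, 30.5 and 163 TPM in the KO mice. The small nuclear RNA gene Gm24497 measured 4.70, 0 and 2.42 TPM in the controls and 3.33, 10.4 and 35.8 TPM in the KO mice, so its groups overlapped. Genes of this kind have many near-identical copies, and the placement of their reads is uncertain.

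Small noncoding RNA genes, which include spliceosomal, nucleolar and vault RNAs, are described apart because KO 3 stood out for them. Of 172 small noncoding RNA genes tested, 24 were higher and 4 lower by the rule (16.3%), against 44 and 11 of 13422 protein-coding genes (0.41%). KO 3 was the sample with the highest sum of these RNAs, and without it the counts were 13 higher and 2 lower, against 0.682% and 0.412% of all genes. Among the controls, the sum was highest in KO Control 1, at 2661 TPM, against 1146 and 1208 TPM in KO Control 2 and 3. The median log2 change of the 45 small nuclear RNA genes was 1.22 with all mice, 0.34 without KO 3 and 1.45 without KO Control 1. Among 7 tested genes of a list of small structural RNAs, 5 were higher at an unadjusted p under 0.05, against 3.46% of all genes, and 0 passed the adjusted threshold. Without KO 3 the count of 5 was 0, and with median-of-ratios scaling it was 2. Without KO Control 1 it was 6, in a fit where 1706 of 16265 genes had an unadjusted p under 0.05 in either direction. The median log2 change of the list was 1.98, or 1.26 without KO 3 and 2.89 without KO Control 1. Rny1, a Y RNA of the Ro ribonucleoprotein, measured 729, 234 and 73.2 TPM in the controls and 582, 824 and 4832 TPM in the KO mice, so that the groups overlapped. The summed level of the list was 992, 300 and 111 TPM in KO Control 1 to 3 and 838, 1626 and 5792 TPM in KO 1 to 3. KO Control 1 thus lay within the KO range, and KO Control 2 and 3 lay below it. The part of RNA recovery or size in these values was not tested.

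RNA-processing genes were examined as the nearest functional relatives of Hnrnph2. In the lists of other hnRNP genes (27 tested), SR proteins (13), neuronal splicing regulators (22), nonsense-mediated decay factors (20), the COMPASS histone methyltransferase complex (13) and nuclear transport (24), no gene (0) passed the adjusted limma threshold, and the count at an unadjusted p under 0.05 was also 0, against 4.08% of all genes. The changes in these lists ran from -0.28 to 0.29 on the log2 scale. At the ends of that range, Xpo1, the export receptor CRM1, measured 35.3, 44.6 and 39.7 TPM in the controls and 31.3, 37.6 and 29.2 TPM in the KO mice, and Celf3, a neuronal splicing regulator, measured 67.9, 94.3 and 96.9 TPM in the controls and 95.3, 87.8 and 135 TPM in the KO mice. The groups overlapped for both genes. Without KO Control 1 the same lists held 3, 1, 5, 2, 0 and 5 genes with an unadjusted p under 0.05, all of them lower in KO cortex. Over all genes, 7.91% were lower at that threshold without KO Control 1.

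Upf3a, a factor of nonsense-mediated decay, measured 17.7, 21.5 and 24.0 TPM in the controls and 24.1, 23.6 and 25.6 TPM in the KO mice, a log2 change of 0.21 (95% interval -0.02 to 0.45). Among 17 RNA degradation genes, 1 had an unadjusted p under 0.05, against 4.08% of all genes. Without KO Control 1 there were 1 higher and 2 lower, where 7.91% of all genes were lower. Dcp1b, a subunit of the decapping complex, measured 8.06, 9.63 and 10.6 TPM in the controls and 12.5, 12.2 and 13.0 TPM in the KO mice, with groups that did not overlap. Its log2 change was 0.39 (SE 0.12, 95% interval 0.13 to 0.65, limma adjusted p = 0.999), and 0.29 without KO Control 1.

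Genes next to Hnrnph2 on the X chromosome were examined because the edited locus lies among them. Of 32 neighbours, 27 were expressed enough to be tested, 17 had a log2 change above 0 and 10 below 0, against 67.3% of all genes above 0, and 0 had an unadjusted limma p under 0.05, against 4.08%. Without KO Control 1, 9 were above 0, against 36.8% of all genes, and 2 were lower at that threshold, against 7.91%. Tceal6, of a family of small elongation factor-like proteins, measured 62.3, 100 and 100 TPM in the controls and 108, 107 and 105 TPM in the KO mice, and Tceal7, of the same family, measured 1.96, 1.83 and 2.56 TPM in the controls and 1.51, 1.54 and 1.64 TPM in the KO mice. The groups of each gene were apart, in opposite directions, with log2 changes of 0.31 and -0.28, where 6.25% of all genes had groups that did not overlap. The log2 change of Tceal6 was 0.08 without KO Control 1.

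A list of 10 genes that the study picked as raised in the knockin lines was chosen on samples of this series and is not independent evidence of their direction. In KO cortex, 3 of these genes had a log2 change above 0 and 7 below 0, against 67.3% of all genes above 0. At an unadjusted limma p under 0.05 there were 0, against 4.08% of all genes. The changes ran from -0.09 to 0.16, and the groups of all 10 overlapped. Ppfia3, a scaffold of the presynaptic active zone, measured 63.1, 73.9 and 79.4 TPM in the controls and 75.8, 71.5 and 96.4 TPM in the KO mice.

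The difference between the KO effect and the R206W effect, each against its own controls, passed the adjusted threshold for 5 genes (0.0307%), and 373 genes (2.29%) had an unadjusted limma p under 0.05. The KO effect was lower for all 5. For Hnrnph2 the log2 changes were -2.30 in KO and 0.0023 in R206W cortex. For Ppp1r9b, which encodes the dendritic spine scaffold spinophilin, the log2 changes were -0.02 in KO and 1.08 in R206W cortex, a difference of -1.10 (SE 0.14, adjusted p = 0.0041). For Ddn, which encodes dendrin, a postsynaptic protein whose message is found in dendrites, they were -0.02 and 0.92, for Ilrun -0.0046 and 0.85, and for Gm31166, named without a known role, 0.21 and 1.62. Ppp1r9b, Ddn and Ilrun are in the list of 10 genes above. For Hnrnph1 the difference was 0.42 (SE 0.18, limma adjusted p = 1.0). Ddn had a limma adjusted p of 0.078 with median-of-ratios scaling and 0.079 without a filter, and Ddn and Ilrun missed the threshold without KO 1, KO 2, KO Control 2 or KO Control 3. Without KO Control 1, 12 genes passed, and without KO Control 3 or KO 2, 3 genes passed.

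No gene of the glutamate receptor, GABA-A receptor or chaperone lists passed the adjusted threshold. Of 22 glutamate receptor genes, 11 had a log2 change above 0, against 67.3% of all genes. At an unadjusted limma p under 0.05 there were 0, against 4.08% of all genes. When KO Control 1 was left out, 3 of the 22 were above 0, against 36.8% of all genes, and the median was -0.22. Of the 22, 8 were then lower at an unadjusted p under 0.05, against 7.91% of all genes. Of 12 GABA-A receptor genes, 1 was above 0, against 67.3% of all genes, and 11 were below, with a median of -0.11. Without KO 3, however, 8 of the 12 were above 0, against 61.4% of all genes. Gabra2, a receptor subunit, measured 24.9, 26.6 and 26.4 TPM in the controls and 21.3, 24.6 and 22.1 TPM in the KO mice, and its groups did not overlap (log2 change -0.19, 95% interval -0.40 to 0.02). Of 26 heat shock and chaperone genes, 5 were above 0, against 67.3% of all genes, and 21 were below. Their median was -0.11, and -0.37 without KO Control 1. In that fit 13 of the 26 were lower at an unadjusted p under 0.05, against 7.91% of all genes. Hspa5, the chaperone BiP of the endoplasmic reticulum, measured 130, 294 and 303 TPM in the controls and 151, 144 and 240 TPM in the KO mice. KO Control 1 was the lowest of the 6 mice for Hspa5, while KO Control 2 and 3 were the highest.

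Immediate-early genes, which respond rapidly to neuronal activity, had higher and lower members, and their balance differed between fits. Npas4, a transcription factor of this class, measured 10.9, 22.7 and 15.8 TPM in the controls and 30.1, 25.8 and 29.1 TPM in the KO mice. Its log2 change was 0.80 (SE 0.20, limma adjusted p = 0.83) with groups that did not overlap. Arc, a regulator of synaptic AMPA receptors, measured 208, 426 and 330 TPM in the controls and 123, 162 and 499 TPM in the KO mice, so that KO 3 was the highest and KO 1 the lowest of all 6 mice. The log2 change of Npas4 was 0.55 without KO Control 1, and that of Arc was -0.51 with all mice and -1.12 without KO 3. Of the 18 genes, 9 were above 0, against 67.3% of all genes, and 2 were higher at an unadjusted p under 0.05, against 3.46%. Without KO 3, 5 were above 0, against 61.4% of all genes, and the median went from 0.09 to -0.31. Without KO Control 1 the median was -0.13.

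Nuclear genes of the respiratory chain and of the cytosolic ribosome gave different values with and without KO Control 1. Of 79 ribosomal protein genes, 55 had a log2 change above 0 with all samples, 33 with median-of-ratios scaling and 79 without KO Control 1. The shares of all genes above 0 in these fits were 67.3%, 47.6% and 36.8%. The medians of the list were 0.06, -0.03 and 0.19. The summed level of the ribosomal protein genes was 45259, 34388 and 30257 TPM in KO Control 1 to 3 and 39740, 38536 and 34620 TPM in KO 1 to 3. KO Control 1 thus had the highest sum and the other controls the lowest. Rps28 measured 543, 483 and 459 TPM in the controls and 651, 573 and 566 TPM in the KO mice, with a log2 change of 0.27 and groups that did not overlap. Of 75 nuclear respiratory chain genes, 51 were above 0, near the 67.3% of all genes. With median-of-ratios scaling 28 were above 0, against 47.6% of all genes. Without KO Control 1 there were 56, against 36.8% of all genes, with a median of 0.09. Ndufb7, a subunit of complex I, measured 113, 134 and 124 TPM in the controls and 156, 141 and 158 TPM in the KO mice, a log2 change of 0.29 (SE 0.09, 95% interval 0.10 to 0.49).

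The labelled tissue was checked against marker genes. All 15 markers of excitatory neurons passed the filter, and their summed level was 1974 to 3124 TPM in the controls and 2471 to 3116 TPM in the KO mice. With all samples, 7 were above 0, against 67.3% of all genes. Without KO Control 1, 1 was above 0, against 36.8% of all genes, with a median of -0.21. In that fit 7 markers were lower at an unadjusted p under 0.05, against 7.91% of all genes. Among markers of other tissues, 8 of 10 striatum, 4 of 8 hippocampus, 3 of 9 choroid plexus and 2 of 8 skeletal muscle genes passed the filter. In bulk tissue, fewer cells of a type and less RNA per cell cannot be told apart. The medians of the glial and vascular lists lay above 0 with all 6 mice, where the median of all genes was 0.06. Those of oligodendrocyte and endothelial genes were slightly below 0 without KO Control 1, where the median of all genes was -0.06. For 14 oligodendrocyte genes the median log2 change was 0.17 with all mice and -0.0036 without KO Control 1, and for 10 endothelial genes it was 0.28 and -0.0051.

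Of all genes, 67.3% had a log2 change above 0 with all mice and 36.8% without KO Control 1. Microglial markers were higher in 9 of 11 genes with all mice and in 11 of 11 without KO Control 1, with a median of 0.19 in both. Their summed level was 427, 441 and 452 TPM in the controls and 465, 488 and 586 TPM in the KO mice, so that the sums did not overlap. The median was 0.06 without KO 3. C1qc, a chain of complement C1q made by microglia, measured 48.1, 53.7 and 53.4 TPM in the controls and 62.3, 59.8 and 73.7 TPM in the KO mice (log2 change 0.33, 95% interval 0.04 to 0.61). Astrocyte markers had a median of 0.19, and 0.05 without KO Control 1. Gfap, the intermediate filament of astrocytes, measured 66.1, 55.4 and 56.5 TPM in the controls and 84.7, 96.7 and 93.5 TPM in the KO mice, a log2 change of 0.62 (95% interval -0.08 to 1.32). Aqp4, the water channel of astrocyte endfeet, measured 62.4, 54.5 and 56.0 TPM in the controls and 70.0, 80.9 and 66.9 TPM in the KO mice (log2 change 0.33, 95% interval 0.09 to 0.56). The groups of both genes were apart, whereas Gjb6, an astrocyte connexin, was at 76.8, 106 and 111 TPM in the controls and 81.4, 74.6 and 101 TPM in the KO mice.

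Markers of leptomeningeal fibroblasts, the cells of the membranes on the cortical surface, were above 0 for 12 of 12 genes with and without KO Control 1. The share of all genes above 0 was 67.3% with it and 36.8% without it. The markers had medians of 0.26 and 0.28. Without KO 3, 11 of 12 markers were above 0, against 61.4% of all genes, and their median was 0.11. Their sum ran from 813 to 1113 TPM in the controls and from 925 to 1594 TPM in the KO mice. Igf2, a growth factor made by these cells, measured 37.8, 26.6 and 37.9 TPM in the controls and 41.1, 46.1 and 62.7 TPM in the KO mice. Igfbp2, a binding protein of insulin-like growth factors, measured 34.3, 32.6 and 41.3 TPM in the controls and 43.0, 44.7 and 62.2 TPM in the KO mice. The groups were apart for both genes, and KO 3 was the highest mouse in each. Blood markers had a median of 0.27, with a sum of 1104 to 1287 TPM in the controls and 1166 to 1663 TPM in the KO mice. None of the genes in these marker lists passed the adjusted threshold, and the part of tissue composition in the values of the named genes was not tested.

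**Figure D5:**
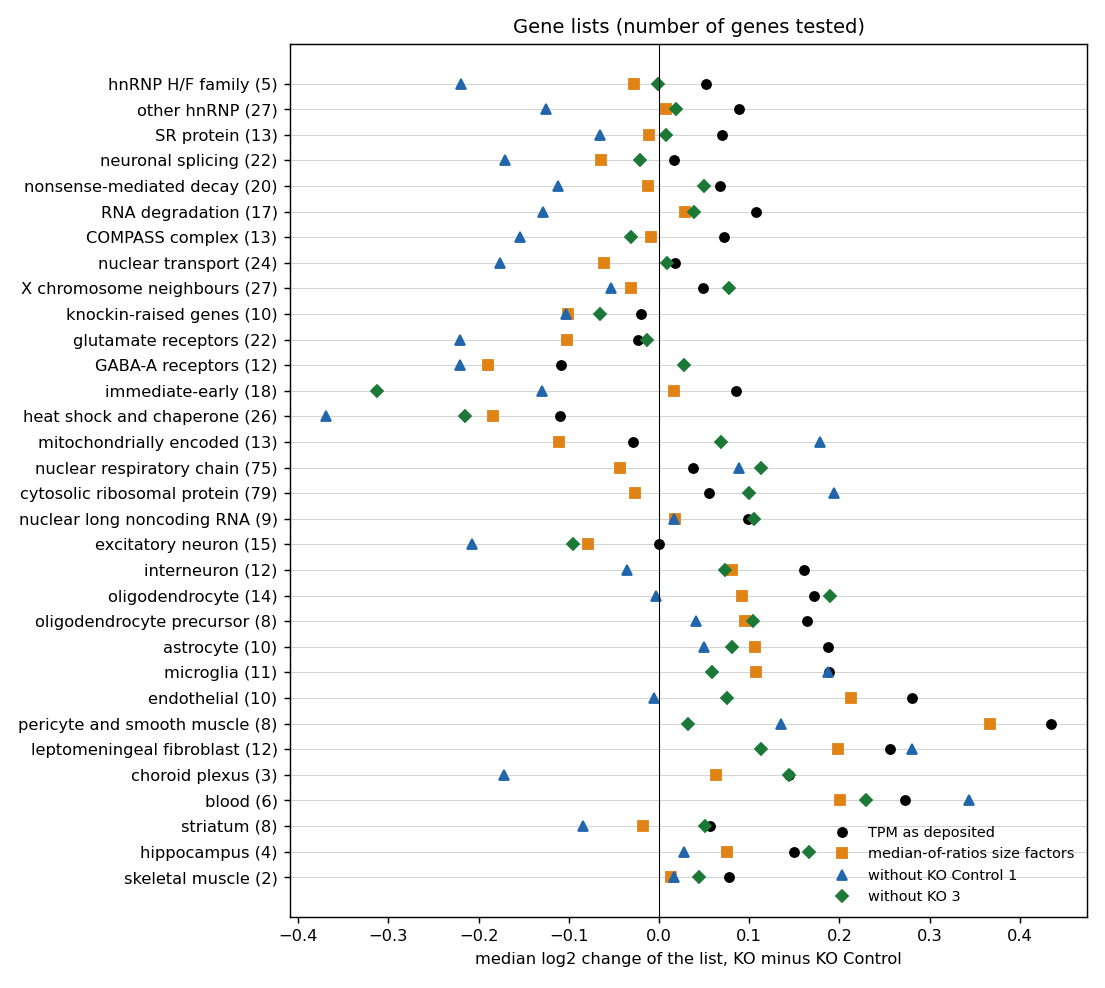
Median log2 change (KO minus KO Control) of each gene list, with the number of genes tested in brackets. Black circles are TPM as deposited, orange squares median-of-ratios scaling, blue triangles the fit without KO Control 1 and green diamonds the fit without KO 3; the list of small structural RNAs, at 1.98, is left out of the axis range. Most lists of RNA processing lie near 0 with all mice and below 0 without KO Control 1, and the ribosomal protein list lies to the right in that fit.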

How the data were processed

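Cortex total RNA was sequenced from stranded libraries, and the authors deposited 1 table of TPM values by gene symbol with a column per mouse. The submitters' processing notes name Trim Galore, STAR 2.7.1a, GATK 4.0.4.0, RSEM and mm10. The annotation, read length and strand setting are not given in the sources used here. TPM holds no depth, so no counting error or detection limit can be given, and abundant transcripts shift all others.

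Repeated symbols (120) were summed, giving 55453 symbols, and 98.3% were matched to GENCODE M21 for coordinates and gene types. The 16265 genes averaging 1 TPM or more across the 17 samples were tested. A mean for each of 6 groups was fitted to log2(TPM + 1) with limma 3.58.1 in R 4.3.3 (trend, two-sided) and the Benjamini-Hochberg adjustment covered all tested genes. Samples were grouped by the labels. The script was tested on simulated data.

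Named genes were the H/F family, genes past the adjusted threshold, and up to 12 per direction with the smallest p, a log2 change beyond 0.5 with an unadjusted p under 0.05, non-overlapping groups, and a direction kept under median-of-ratios scaling and without KO Control 1, leaving out symbols of the Gm, Rik and -ps kinds. Of the genes so chosen, 1 is not reported here. From each list up to 2 genes per direction could be named, if their direction held in every alternative. The rule, lists and members were chosen with earlier results of these data known. Alternatives were the pseudocount, filter, scaling, samples, a replicate block, sample weights, robust=TRUE and leaving out each mouse.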

Additional observations from a re-analysis of the deposited data

Results flagged for a closer look

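Results were flagged where the KO effect and the R206W effect, each against its own controls, differed by the limma test of the difference over all genes. The difference in log2 change, KO minus R206W, was -2.31 for Hnrnph2 (adjusted p = 0.0011), -1.10 for Ppp1r9b (adjusted p = 0.0041), -1.40 for Gm31166 (adjusted p = 0.0041), -0.85 for Ilrun (adjusted p = 0.027) and -0.94 for Ddn (adjusted p = 0.027). For Hnrnph2 the difference lay in the KO mice. For the other 4 genes the KO log2 changes were between -0.02 and 0.21, and those of R206W cortex between 0.85 and 1.62. Ppp1r9b, Ilrun and Ddn belong to the list that the study picked on samples of this series. That list held genes raised in the knockin lines and not in KO mice. Groups of 3 mice are too small for the test of single outlying samples.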

How the results depend on the processing

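The count of genes past the adjusted threshold (1) was 2 without a filter, 2 with robust=TRUE, 4 with median-of-ratios scaling and no KO Control 1, 2156 with sample weights, and 1 to 5 when a mouse was left out (5 without KO Control 1, 2 without KO Control 2 or KO 1). It was 0 by limma when the KO line was fitted alone, with 334 genes at an unadjusted p under 0.05, where Hnrnph2 kept its change of -2.30 with an adjusted p of 0.083. The unadjusted rule (141) gave 265 with a pseudocount of 0.1, 63 with a mean TPM of at least 5, 543 with sample weights, 224 with median-of-ratios scaling and no KO Control 1, and 175 to 319 when a mouse was left out (249 without KO Control 1). The count for KO minus R206W (5) was 319 with sample weights, 9 with median-of-ratios scaling and no KO Control 1, and 3 to 12 when a mouse was left out. Hnrnph2 ran from -2.58 to -2.16 and Hnrnph1 from 0.37 to 0.60 when a mouse was left out. Hnrnph1 passed the adjusted threshold with sample weights alone (0.40, limma adjusted p = 0.0094), where KO Control 2 and KO 1 carried most of the weight of their groups. The other genes named for a KO difference kept their direction under every alternative, except Hnrnph3, Hnrnpf and Grsf1. Hnrnph3 was -0.027 with median-of-ratios scaling, -0.020 with the controls of both 8-week lines, -0.0474 with sample weights, -0.12 without KO Control 1, -0.00062 without KO 3 and -0.073 with median-of-ratios scaling and no KO Control 1. In the same order Hnrnpf was -0.027, -0.090, -0.23, -0.22, -0.046 and -0.17. With a mouse left out, Hnrnph3 ran from -0.12 to 0.19, Hnrnpf from -0.22 to 0.22 and Grsf1 from -0.23 to 0.063, with Grsf1 at 0.063 without KO Control 2, 0.050 without KO Control 3 and 0.035 without KO 3. The cause of these shifts was not tested. Same-numbered KO and KO Control mice had deviations correlated at 0.12, -0.058 and 0.33, and KO 2 correlated best with KO Control 1 (0.26), so the numbers were not treated as pairs. A fit with the replicate number as a block gave 1 gene past the adjusted threshold, 190 by the unadjusted rule and 1 for KO minus R206W, Hnrnph2, where Ppp1r9b and Gm31166 had an adjusted p of 0.064, Ddn 0.20 and Ilrun 0.30. TPM holds no depth, so what depth limits is unknown.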
